A study of Mus musculus with 12 samples.

Results

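The cytosolic heat shock response genes of fibrotic mouse liver were described in 10 genes, which were Hspb1, Hspb8, Cryab, Hspa1a, Hspa1b, Hspa8, Hsph1, Hsp90aa1, Dnajb1 and Bag3. They were chosen by name from the protein-coding table, and the FPKM of a gene was the sum over its listed transcripts. All 10 genes were listed, with 18 of the 29883 transcripts, and they were 10 of the 14188 genes of the table. FPKM counts sequenced fragments per transcript length and library size, on a linear scale.

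Cells answer damaged or unfolded protein by releasing heat shock factor 1, which binds arrays of inverted repeats in the promoters of chaperone genes and switches them on. The small heat shock proteins hold unfolding proteins in a soluble state, Hsp70 proteins refold them with J-domain partners and nucleotide exchange factors, and Hsp90 completes the folding of kinases and steroid receptors. In injured hepatocytes these genes are known to be induced together with oxidative stress genes, and the Bag3 protein joins small heat shock proteins to Hsp70 for the removal of clients by autophagy.

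Liver RNA came from 12 mice, 6 in each of the PZH and control groups. Every mouse was given the same repeated intraperitoneal injections of CCl4, a solvent that is toxic to hepatocytes, in corn oil. The extent of injury differed, since the study reported higher serum levels of the liver enzymes ALT and AST in control mice in the eighth week. The PZH mice also received Pien Tze Huang (PZH), a traditional Chinese medicine, into the stomach every day, and the control mice received distilled water by the same route. The mice were males of 6 weeks at the start and were killed in the eighth week, and the strain is C57BL/8 in the labels and C57BL/6J in the methods of the study. No liver without CCl4 was among the 12 mice, so a level in either group cannot be placed against the uninjured state. The labels give no batch, cage or hour of collection, and the p-values measure the spread between single mice.

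The low FPKM values stepped as if the depth was 26.8 to 42.7 M fragments, with medians of 30.3 M for PZH and 30 M for control mice (exact permutation test, p = 0.55). The deepest library was PZH 1. The hepatocyte gene Alb had 38437 ± 5471 FPKM in PZH livers and 24059 ± 4039 in control livers (SD, n = 6), and a level this high is that of liver. The median log2 fold change of all genes was -0.11, and a median-ratio scale factor per mouse moved it by 0.11, to -0.001. The factors were 0.875 to 1.005 in PZH mice and 1.03 to 1.11 in control mice, without overlap (exact permutation test, p = 0.0022). With the FPKM as deposited, 71.7% of the genes that passed the adjusted threshold were lower in PZH livers, and with the scale factor 49.4% were. Changes of the members are therefore read against a median of all genes just below 0. With the scale factor, the log2 fold change moved from -3.56 to -3.38 for Hspb1. It moved from -0.88 to -0.69 for Hspa8 and from -0.46 to -0.27 for Hspb8.

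The promoters of 7 of the 10 members stood in the RefSeq promoter table of GRCm38.p6, which holds 300 bases per start site, 250 before the start and 50 after it. Cryab, Hspa8 and Hsp90aa1 had no entry, and the first window was taken where a gene had more than 1. The core of a heat shock element is a pair of inverted repeats, and both of its arrangements, GAANNTTC and TTCNNGAA, read the same on both strands. At least 1 pair stood in the window of 6 of these 7 members and before the start in 4, whereas 15.1% of all 32851 windows held a pair and 12.8% held it before the start. The stretches of these 4 members are shown, because Hspb1 and the Hspa1 pair had the most negative fold changes and Hsph1 is the fourth member with a pair before the start. Each is written in the direction of transcription, with the pair in capitals.
Hspb1, chr5:135887769-135887868, plus strand: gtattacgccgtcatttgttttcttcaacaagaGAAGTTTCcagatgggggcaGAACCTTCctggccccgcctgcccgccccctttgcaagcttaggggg
Hspa1a, chr17:34972207-34972306, minus strand: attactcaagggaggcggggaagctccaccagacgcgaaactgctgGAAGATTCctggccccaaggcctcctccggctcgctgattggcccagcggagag
Hspa1b, chr17:34959289-34959388, minus strand: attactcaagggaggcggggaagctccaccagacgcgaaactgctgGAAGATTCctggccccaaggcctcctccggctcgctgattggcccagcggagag
Hsph1, chr5:149636351-149636380, minus strand: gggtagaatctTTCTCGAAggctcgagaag

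Hspb1 held its pairs 117 and 97 bases before the start, counted to the first base of the pair. Hspa1a and Hspa1b each held 1 pair, 104 bases before the start, and the stretches shown are the same letters. Over the whole 250 bases before the start these 2 genes shared 247 bases. They are therefore not separate cases in the counts of members with a pair. The members were chosen by name as heat shock genes, so their counts beside all windows are a description. Hsph1 held 1 pair 33 bases before the start and others 37 and 42 bases after it. Hspb8 and Bag3 held a pair only after the start, at base 3 and base 43. Dnajb1 held neither arrangement in its window, which says only that these letters are not there, and no binding was measured in any of the windows.

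PZH-treated livers had less RNA of nearly all members. By limma on log2(FPKM + 1), 9 of the 10 genes were lower in PZH livers at an adjusted p under 0.05, against 32.1% of all genes, and 0 were higher, against 12.7% of all genes. At a 2-fold change and an unadjusted P under 0.05, the criteria of the study, 3 members were called lower (Hspb1, Hspa1a and Hspa1b) and 0 higher, where 2.5% of all genes were called lower and 1.52% higher. The 6 PZH mice were all below the 6 control mice in 8 of the members, and in 17.9% of all genes. The median log2 fold change of the members was -0.98, beside -0.11 for all genes. In whole liver, fewer cells of a type and less RNA per cell cannot be told apart.

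**Figure D1:**
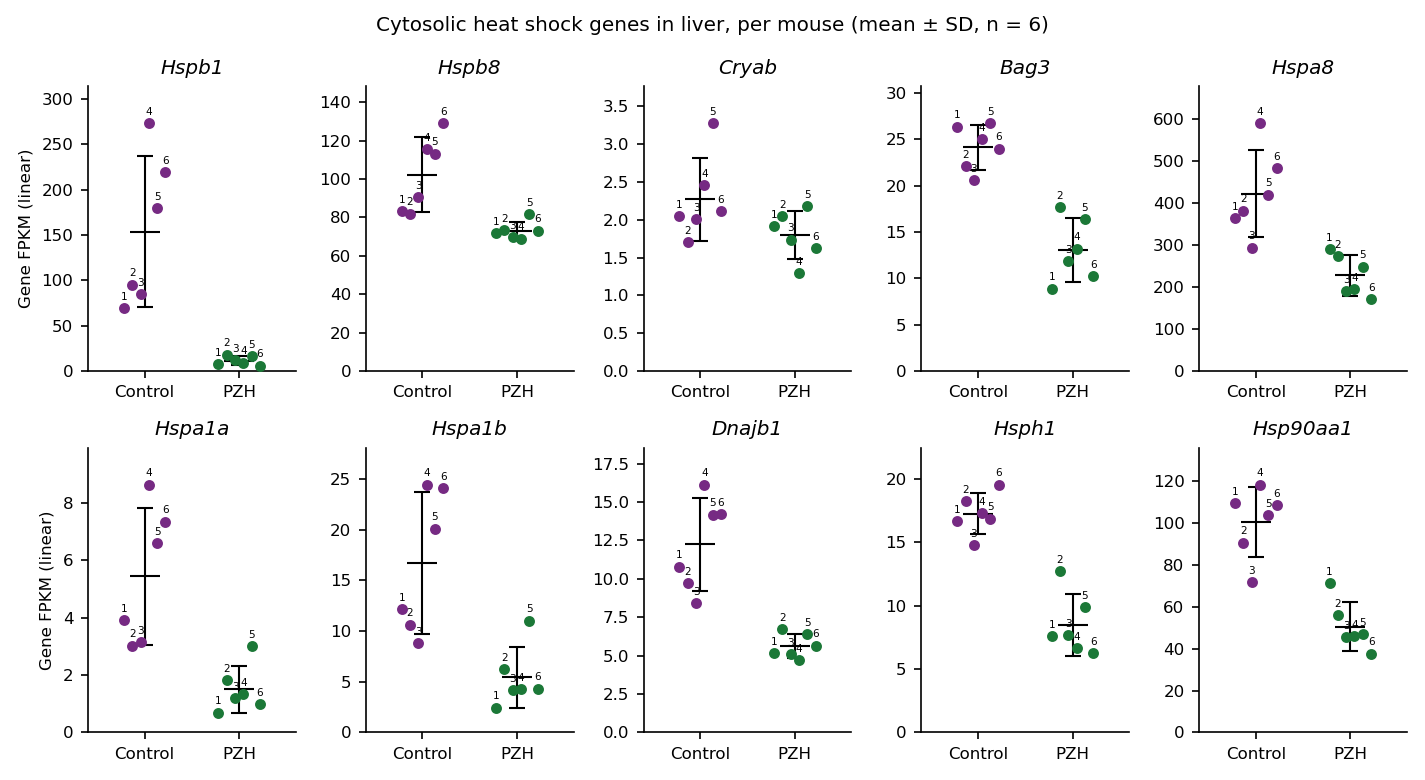
FPKM (vertical axis, linear, from 0) of the 10 members in each of the 6 control mice (purple) and 6 PZH mice (green), with the number of the mouse beside its point and bars for mean ± SD. The PZH points lie below all control points in 8 panels, and the groups overlap for Cryab and Hspa1b.

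Hspb1 encodes Hsp27 (Hsp25 in the mouse), a small heat shock protein that binds unfolding proteins and actin filaments. The gene lies at chr5:135887919-135889563 on the plus strand. Its FPKM ranged from 5.81 to 17.8 in PZH livers (median 10.5) and from 69.6 to 273 in control livers (median 137). The lowest control mouse had several times the FPKM of the highest PZH mouse, and control 4 to 6 stood well above control 1 to 3. The means were 11.3 ± 4.81 and 154 ± 83.2 FPKM (SD, n = 6), a 13.6-fold lower level in PZH livers. The log2 fold change was -3.56 (SE 0.36 and adjusted p = 2.18e-05), the most negative of the members. Only 0.007% of the 14188 genes in this fit had a more negative one. Of the 2 listed transcripts, the one of 3 exons (ENSMUST00000005077) held 96.1% of the FPKM, and its share did not differ between the groups past the threshold (exact permutation test, adjusted p = 0.173). In the PZH mouse with the lowest value this transcript still rested on about 158 fragments.

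Hspb8 and Cryab, the other small heat shock proteins of the list, changed far less. Hspb8, which works in a complex with Bag3, ranged from 68.9 to 81.5 FPKM in PZH livers (median 72.5) and from 81.9 to 129 in control livers (median 102). The groups met almost edge to edge, and the PZH mice lay in a narrow band, with a coefficient of variation of 6.17% against 19.2% in control livers. The log2 fold change of Hspb8 was -0.46 (SE 0.112, adjusted p = 0.00503). Cryab encodes alpha-B crystallin, a small heat shock protein that is abundant in muscle and lens. It was the member with the lowest level per length in control livers, with 1.29 to 2.18 FPKM in PZH livers (median 1.82) and 1.71 to 3.28 in control livers (median 2.08). The groups overlapped, and the difference of -0.22 on the log2(FPKM + 1) scale (SE 0.111) did not pass the threshold (adjusted p = 0.132). The main transcript of Cryab rested on as few as 15.7 fragments in a mouse, and the pseudocount of 1 compresses a fold change at this level.

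The change of Hspb1 differed from that of Cryab by 3.34 on the log2 scale when the members were subtracted within each mouse (SE 0.355, exact permutation test, adjusted p = 0.0054 over 5 pairs of members). Hspb1 fell far more than its family member, and both were measured in the same libraries.

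Bag3 is the nucleotide exchange factor that couples Hsp70 to the small heat shock proteins, with Hspb8 as its best known partner. It ranged from 8.88 to 17.7 FPKM in PZH livers (median 12.5) and from 20.6 to 26.8 in control livers (median 24.5). There was no overlap, and the control mice varied little, with a coefficient of variation of 10.02% against 26.4% among the PZH mice. The log2 fold change was -0.87 (SE 0.145 and adjusted p = 0.000404). Bag3 fell further than Hspb8 by 0.41 on the log2 scale (SE 0.171, exact permutation test, adjusted p = 0.0487).

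Among the Hsp70 genes, Hspa8 encodes Hsc70, the form made in all cells without stress. It was the member with the highest level per length, from 170 to 290 FPKM in PZH livers (median 222) and from 293 to 590 in control livers (median 400). The highest PZH mouse, PZH 1, came just under the lowest control mouse, control 3. The means were 228 ± 49.2 and 422 ± 103 FPKM (SD, n = 6), with a log2 fold change of -0.88 (SE 0.174 with an adjusted p = 0.0013). Hspa8 has processed copies elsewhere in the genome, and how reads shared with them were counted is not given in the sources used here.

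Hspa1a and Hspa1b encode the stress-induced Hsp70 from neighbouring single-exon genes at chr17:34969190-34972156 and chr17:34956436-34959238, both on the minus strand. The coding parts are 1923 and 1926 bases long, and 99.6% of the coding bases of Hspa1a were the same in Hspa1b once a gap of 3 bases was placed. Reads can be split between such copies by chance, so the value of either gene alone is uncertain. Hspa1a ranged from 0.691 to 3.002 FPKM in PZH livers (median 1.26) and from 3.031 to 8.64 in control livers (median 5.26). Hspa1b ranged from 2.45 to 11.0 FPKM in PZH livers (median 4.29) and from 8.81 to 24.5 in control livers (median 16.1). PZH 5 was the highest PZH mouse for both genes, coming just under control 2 for Hspa1a and standing above control 2 and control 3 for Hspa1b. The log2 fold changes were -1.34 for Hspa1a (SE 0.255, adjusted p = 0.00102) and -1.47 for Hspa1b (SE 0.31, adjusted p = 0.00196).

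Added up, the 2 copies had 6.93 ± 3.82 FPKM in PZH livers and 22.2 ± 9.38 in control livers (SD, n = 6). The difference of the sum was -1.56 on the log2 scale (exact permutation test, p = 0.0065, a test added after the data were seen). The share of Hspa1a in the sum was 18.7% to 26.4% over the 12 mice, with means of 21.7% and 24.5% (exact permutation test, p = 0.0152). The sum fell further than Hspa8 by 0.68 on the log2 scale (SE 0.306, exact permutation test, adjusted p = 0.0487), and Hspb1 fell further than Hspa8 by 2.68 (SE 0.303, adjusted p = 0.0054 by the same exact test). By this test the stress-induced copies, as a sum, changed by more than the form made without stress, with an adjusted p just under the threshold. Of the PZH mice, PZH 1 had both the lowest sum (3.14 FPKM) and the highest Hspa8 (290 FPKM). The pair was not tested without PZH 1.

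Dnajb1 encodes Hsp40, the J-domain protein that brings clients to Hsp70 and stimulates its ATPase. It ranged from 4.72 to 6.70 FPKM in PZH livers (median 5.42) and from 8.43 to 16.1 in control livers (median 12.5), without overlap. The log2 fold change was -0.98 (SE 0.143 and adjusted p = 0.000179). Control 4 to 6 were again above control 1 to 3.

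Hsph1 encodes Hsp110, a large Hsp70 relative that exchanges nucleotides on Hsp70 and helps to dissolve aggregates. It ranged from 6.24 to 12.7 FPKM in PZH livers (median 7.65) and from 14.8 to 19.6 in control livers (median 17.1). The groups did not overlap, and PZH 2 was the closest to the control mice. The log2 fold change was -0.98 (SE 0.14 and adjusted p = 0.000156).

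The split of Hsph1 over its 3 listed transcripts did not follow the groups. The transcript of 17 exons (ENSMUST00000074846) was listed at 0 in PZH 3, PZH 5, control 1 and control 2, and the transcript of 18 exons (ENSMUST00000202361) held 7.69 and 9.86 FPKM in these PZH mice and 16.4 and 18.2 in these control mice. In the other mice the first of them held 81.1% to 90.9% of the gene. Taken singly, none of the 3 transcripts passed the threshold (adjusted p = 0.713, 0.644 and 0.126 by limma over all transcripts), while the sum over the gene did. The share of the main transcript was 59.1% ± 45.8 in PZH livers and 57.1% ± 44.3 in control livers (SD, n = 6, exact permutation test, adjusted p = 0.649).

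**Figure D2:**
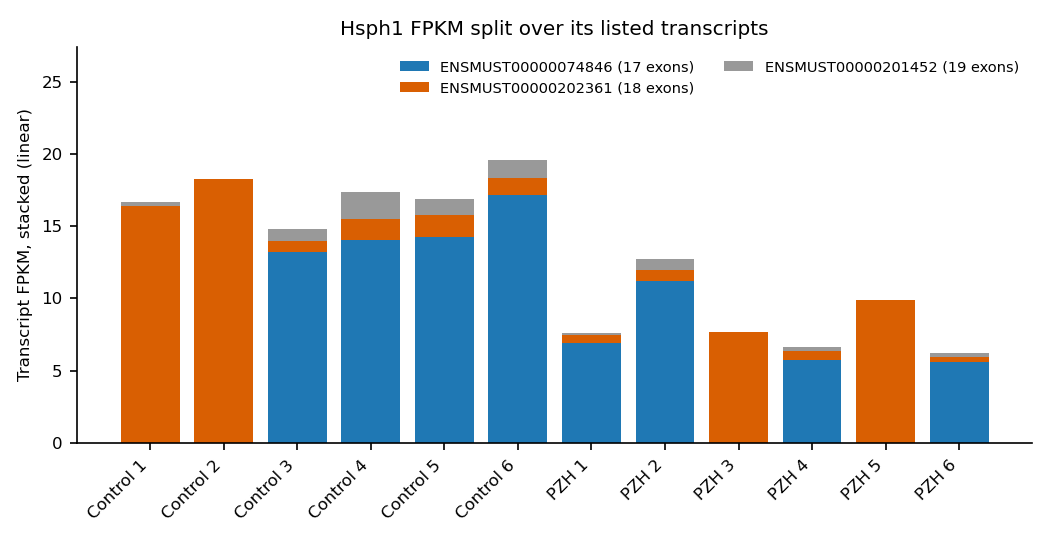
Stacked bars of transcript FPKM (vertical axis, linear, from 0) of the 3 listed Hsph1 transcripts in each control and PZH mouse. The 17-exon transcript is absent from the bars of control 1, control 2, PZH 3 and PZH 5, where the 18-exon transcript takes its place, while the total height separates the groups.

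Hsp90aa1 encodes the inducible cytosolic Hsp90. It ranged from 37.6 to 71.3 FPKM in PZH livers (median 46.3) and from 71.9 to 118 in control livers (median 106). The groups touched at PZH 1 and control 3, and the other PZH mice had at most 56.2 FPKM. The means were 50.5 ± 11.8 and 100.5 ± 16.7 FPKM (SD, n = 6), with a log2 fold change of -0.99 (SE 0.151 with an adjusted p = 0.00024). The changes of Hsph1 and Hsp90aa1 differed by 0.01 on the log2 scale (SE 0.171, exact permutation test, adjusted p = 0.959), which does not show that they are equal.

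**Figure D3:**
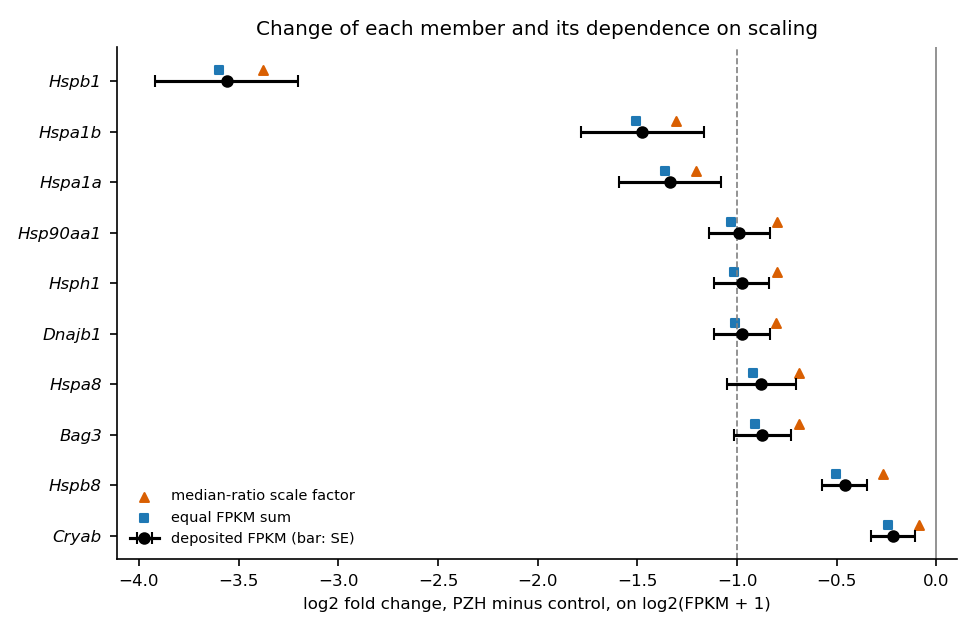
Log2 fold change of each member (PZH minus control, on log2(FPKM + 1)) with the FPKM as deposited (black, bars for SE) and after 2 other scalings of the libraries. The points of all 10 members lie below 0 under each scaling, Hspb1 at -3.56 is far from the rest, and the dashed line marks a 2-fold lower level, near which Hsp90aa1, Hsph1 and Dnajb1 lie.

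Most members tended to vary together among mice of the same group. After the group mean was subtracted, each member was set against the mean of the others over the 12 mice. The correlation ran from r = 0.46 for Hsp90aa1 to r = 0.90 for Dnajb1, and both values of a mouse come from 1 library. For Hspa1a and Hspa1b the mean of the others includes the near-identical copy. No typical r of other genes is given, so these values are a description. The highest control value was in control 4 for 6 members and in control 5 or control 6 for the others, and the lowest was in control 3 for 6, control 2 for 3 and control 1 for 1. In 7 members control 4 to 6 were all above control 1 to 3, an order that was noticed after the values were seen and that the labels do not explain. It was not a trait of the members alone, since 14.1% of all genes had the same order and 4.47% the opposite one, and the median-ratio factors were 1.03 to 1.07 in control 1 to 3 and 1.09 to 1.11 in control 4 to 6. Among the 12 clock genes, Tef, Nr1d2 and Per1 had this order and Arntl and Npas2 the opposite one. Arntl, an activator of the clock, had 7.67, 5.56 and 7.94 FPKM in control 1 to 3 and 5.06, 4.26 and 2.87 in control 4 to 6, and Per1, a repressor, had 4.60, 3.83 and 5.02 and then 8.54, 10.28 and 10.55. Of the 7 immediate early genes, Jun and Fosb had the order of the members. The part of any of these in the order of the members was not tested. Among the PZH mice, PZH 2 and PZH 5 were each the highest for 4 members and PZH 1 for 2 (Hspa8 and Hsp90aa1). Over all 10 members, the coefficient of variation was larger in control livers for 5 members and larger in PZH livers for the other 5.

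**Figure D4:**
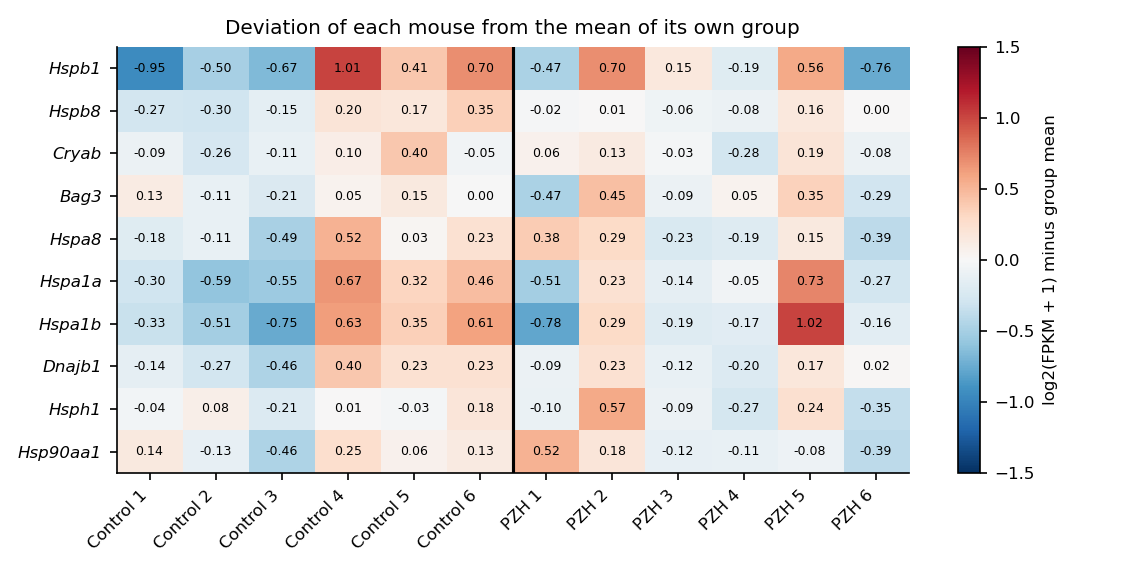
Log2(FPKM + 1) of each member (rows) in each mouse (columns) minus the mean of its own group, in colour and as numbers. Controls 4 to 6 are mostly above and controls 1 to 3 mostly below their group mean, and PZH 2 and PZH 5 are above theirs for most members.

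The genes whose deviations were most like the mean of the members over the 12 mice, among 10938 genes with a mean FPKM of at least 1, were Slc4a7, a bicarbonate transporter (r = 0.947), B4galt7, a galactosyltransferase of proteoglycan synthesis (r = 0.943), Slc7a1, a cationic amino acid transporter (r = 0.930), Gna13, a G protein subunit (r = 0.917), and Tmem43, a membrane protein of the nuclear envelope (r = 0.917). The most like gene of so many is high by selection, and these values are a description.

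Of the 3 heat shock factors that were measured, only Hsf1 passed the threshold with the FPKM as deposited. Of the 5 factors and regulators on this list, 1 was lower and 2 higher. With the median-ratio scale factor the counts were 1 and 3, and Hsf2 was then among the higher ones. Hsf1, the factor that switches on the members, had 3.17 ± 0.564 FPKM in PZH livers and 5.08 ± 1.08 in control livers (SD, n = 6), a difference of -0.54 on the log2 scale (adjusted p = 0.00358) with overlap of the groups. Hsf2 had 7.80 ± 1.06 and 7.04 ± 1.01 FPKM (adjusted p = 0.303), and Hsf4, named after its value was seen, had a log2 fold change of -0.19 (adjusted p = 0.344). Hsbp1, a protein that binds and restrains the factor, rose by 0.52 on the log2 scale (adjusted p = 0.00279). RNA of a factor does not measure its activity, which depends on its release and trimerization.

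Other cytosolic chaperones changed in smaller steps. Over 7 lists (other small heat shock proteins, other Hsp70 and Hsp110, other DnaJ proteins, Bag and nucleotide exchange factors, Hsp90 with its cochaperones, the CCT chaperonin and prefoldin), 62 genes were measured, 35 were lower and 1 was higher at the adjusted threshold, and 26 did not pass it. None was called at 2-fold in either direction, and the median log2 fold change was -0.30. With the median-ratio scale factor 19 were lower and 5 higher, and the median was -0.14. A good part of these calls therefore depends on the scaling, whereas 9 members remained lower. Of all genes, 32.1% were lower and 12.7% higher as deposited, and 19.3% and 19.8% with the scale factor. The counts by list below are to be read beside these shares.

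By list, 1 of 5 genes listed by symbol as other small heat shock proteins was lower. This was Hspb9, which was chosen for naming after its value was seen. It had a very low level, with 0.143 ± 0.126 FPKM in PZH livers and 0.359 ± 0.062 in control livers. The gene of this list with the highest level per length, Hspb11, had 3.22 ± 0.477 FPKM in PZH livers and 3.71 ± 0.584 in control livers. Hspb3, Cryaa, Dnajc6 and Cct6a of these lists were not in the table. Of 7 other Hsp70 and Hsp110 genes, 3 were lower and 0 higher, among them Hspa4, an Hsp110 relative of Hsph1, with 18.7 ± 1.89 against 27.1 ± 0.424 FPKM (log2 fold change -0.52, adjusted p = 7.77e-05). Of 12 other DnaJ genes, 7 were lower and 0 higher, and Dnaja2 had a log2 fold change of -0.35 (adjusted p = 0.000923).

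Of 6 Bag and nucleotide exchange genes, 3 were lower and 1 higher, with Bag6 at -0.35 (adjusted p = 0.0249). Of 19 Hsp90 and cochaperone genes, 12 were lower and 0 higher. Hsp90ab1, the constitutive Hsp90, had 188 ± 30.9 FPKM in PZH livers and 280 ± 34.8 in control livers (SD, n = 6), a log2 fold change of -0.58 (adjusted p = 0.00138). CCT folds actin and tubulin, and all 7 measured subunits were lower, with Cct5 at -0.45 (adjusted p = 0.00193), but with the scale factor only 2 of them passed. Of 6 prefoldin subunits, which hand clients to CCT, 2 were lower and 0 higher, but with the scale factor 0 were lower and 2 higher, and Pfdn5 had 28.6 ± 4.07 FPKM in PZH livers and 25.7 ± 1.36 in control livers.

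Genes of chaperone-assisted autophagy, the route that Bag3 and Hspb8 serve, were lower in 6 of 11 and higher in 0. Sqstm1 encodes p62, the receptor that carries ubiquitinated proteins to autophagosomes, and it was the only one called at 2-fold. It ranged from 122 to 149 FPKM in PZH livers (median 132) and from 255 to 520 in control livers (median 364). The log2 fold change of Sqstm1 was -1.42 (SE 0.133, adjusted p = 1.56e-05), and no PZH mouse came near the control range.

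Other genes known as heat shock factor targets were lower in 8 of 14 and higher in 1, and 6 of the 14 were called at 2-fold lower. The genes of this list with the most negative log2 fold changes were the metallothioneins Mt2 (-3.33, adjusted p = 3.71e-05) and Mt1 (-2.88, adjusted p = 6.56e-05), which bind zinc and copper and also answer to metals and glucocorticoids, and the immediate early and stress factors Egr1 (-2.10, adjusted p = 8.85e-05) and Atf3 (-2.01, adjusted p = 2.01e-05). These genes have many inducers besides heat shock factor. Hspd1 and Hspe1, the mitochondrial chaperonin that stands on the same list, did not pass, with log2 fold changes of -0.02 and -0.01.

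The chaperones of other compartments were counted in the same way. Of 11 mitochondrial chaperone genes, 4 were lower and 1 higher, where 32.1% of all genes were lower and 12.7% higher. Hspa9, the mitochondrial Hsp70, was at -0.35 (adjusted p = 0.00396). With the scale factor 0 of the 11 were lower and 1 was higher. Of 13 chaperones of the endoplasmic reticulum, 11 were lower and 0 higher, and with the scale factor 9 and 1. Hspa5, the Hsp70 of that compartment known as BiP, had 336 ± 86.4 FPKM in PZH livers and 841 ± 187 in control livers (SD, n = 6), a log2 fold change of -1.33 (adjusted p = 8.64e-05). Sdf2l1, Hyou1 and Dnajb9, its partners, were also called at 2-fold, at -1.19, -1.09 and -1.06 (adjusted p = 6.72e-05, 8.96e-05 and 4.74e-05). The median log2 fold change was -0.76 for this list and -0.11 for the mitochondrial list.

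**Figure D5:**
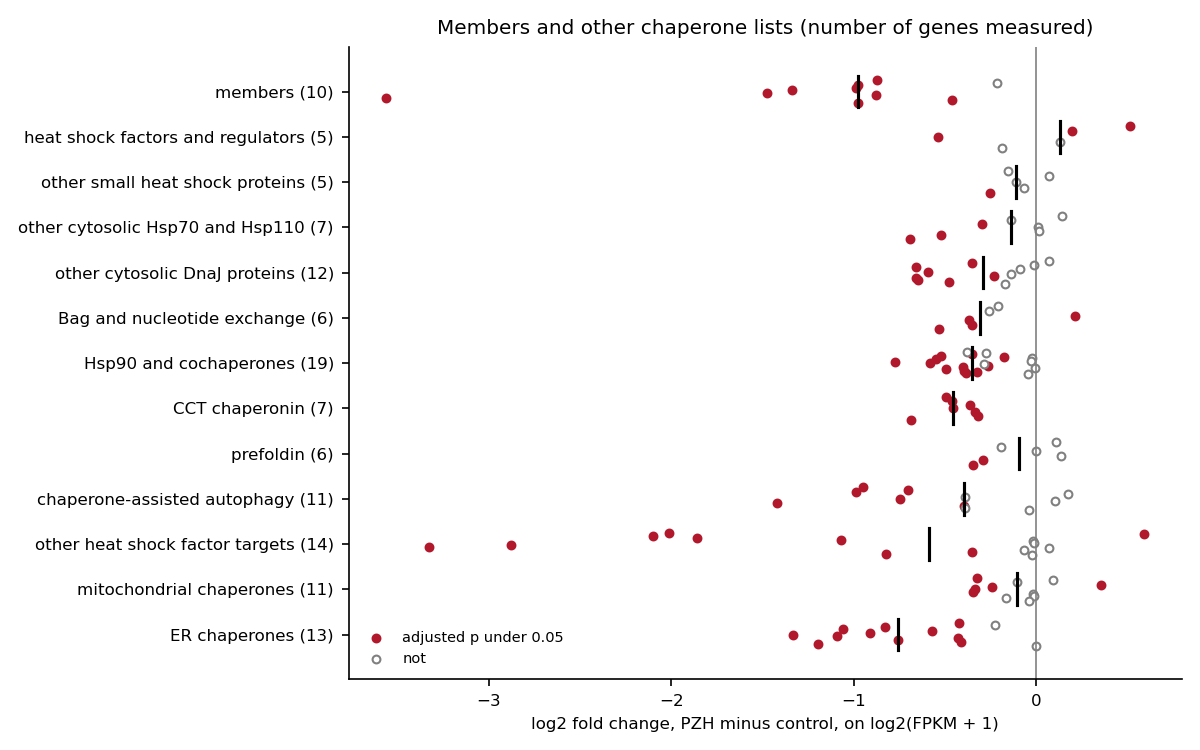
Log2 fold change (PZH minus control, on log2(FPKM + 1)) of every measured gene of the members and of 12 chaperone and target lists, with filled points for an adjusted p under 0.05 and a bar at the median of each list. The members have a median of -0.98, the medians of the other cytosolic chaperone lists lie between it and 0, and the endoplasmic reticulum list has a median of -0.76.

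Other markers moved with the groups, and their part in the results above was not tested. All 7 immediate early genes, which answer to stress and to handling of tissue, were lower in PZH livers at the adjusted threshold without overlap, and their summed FPKM was 20.2 to 34.8 in PZH mice and 72.7 to 141 in control mice. Of these, Fos, Egr1 and Atf3 also stand on the list of heat shock factor targets. Of 12 clock genes, 6 were higher and 2 lower, with log2 fold changes of 2.73 for Dbp, 1.88 for Per3, 1.49 for Tef and 1.11 for Nr1d1, and the hour of collection cannot be told apart from the groups. Clock genes also differed among the control mice, as given above. Heat shock genes are themselves known to follow the day in liver.

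Cell type markers went both ways, and the counts are for the FPKM as deposited unless the scale factor is named. Of 6 hepatocyte markers, 4 were higher and 1 lower, with a summed FPKM of 40037 to 55655 in PZH mice and 21877 to 35606 in control mice. Of 10 markers of hepatic stellate cells and myofibroblasts, 4 were lower and 2 higher (sum 130 to 221 against 116 to 189), with Timp1 at -2.13, Tagln at -1.38 and Col3a1 at 0.62. Of 6 cholangiocyte markers, only Sox9 was lower, at -1.64, and Epcam was at 0 in a mouse (sum 67.4 to 134 against 97.4 to 161). Of 7 macrophage markers, 2 were lower and 3 higher (sum 201 to 296 against 191 to 254), with Marco at -2.21.

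Of 4 smooth muscle markers, which bear on Hspb1, Hspb8 and Cryab as muscle genes, only Des was lower (-0.47, adjusted p = 0.00685), the sum was 1.63 to 4.12 against 3.35 to 6.22 FPKM, and Cnn1 and Actg2 were at 0 in a mouse. None of the 5 skeletal muscle markers was listed. Endothelial markers were lower in 2 of 5 (sum 70.1 to 85.4 against 74.0 to 84.6), neutrophil markers in 1 of 3 (sum 7.33 to 121 against 12.9 to 53.2), and T and B cell markers in 0 of 6 (sum 10.8 to 15.2 against 6.21 to 17.9). None of these 3 lists had a gene at 0 in a mouse. With the median-ratio scale factor, more of these markers were higher. The counts of lower and higher genes were then 0 and 5 for hepatocytes, 4 and 4 for stellate cells and myofibroblasts, 1 and 1 for cholangiocytes, 1 and 5 for macrophages, 1 and 1 for endothelium, and 0 and 2 for T and B cells, while smooth muscle and neutrophil markers kept counts of 1 and 0.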

How the data were processed

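The members and gene lists were chosen with earlier results of these data known. The authors made strand-specific, rRNA-depleted libraries, trimmed reads with Trimmomatic, mapped them with HISAT2 to GRCm38, assembled transcripts with StringTie on Ensembl release 95, and deposited FPKM per transcript and mouse. The table lists only transcripts with a summed FPKM of at least 1. Transcripts were assigned to genes with GENCODE M21, which left out 7, and summed. The lncRNA table was not used here.

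All 14188 genes were fitted on log2(FPKM + 1) with limma 3.58.1 in R 4.3.3 (default moderation, no filter, Benjamini-Hochberg adjustment), a procedure tested on simulated data. Fold changes of low genes are understated on this scale. Single values were compared by two-sided exact permutation tests over all 924 ways to label the mice, with 0.0022 as the smallest p they allow. Tables and figures were made in Python 3.11.15 (numpy 2.4.6, pandas 2.3.3, matplotlib 3.10.9).

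Named genes were the members, Hsf1, Hsf2, at most 4 genes per list called at 2-fold, the gene of each list with the highest mean FPKM, and the 5 genes most like the members. Counts were not recovered from FPKM, so no counting interval is given, and fragments behind a value are an estimate from the implied depth. Alternatives were log2(FPKM + 0.1), a filter at a mean FPKM of 1, other scalings, moderation, a replicate block, the most abundant transcript, and each mouse left out.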

Additional observations from a re-analysis of the deposited data

How the results depend on the processing

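The number of members lower at the adjusted threshold was 8 or 9 under all 20 alternatives, and 8 only with the most abundant transcript, where Hsph1 had a log2 fold change of -0.63 (adjusted p = 0.65). Hspb8 had its largest adjusted p, 0.0476, with the median-ratio scale factor, and Cryab passed under none. The number of members called at 2-fold was 3, but 6 with log2(FPKM + 0.1) and 6 with an equal FPKM sum, since Hsp90aa1, Hsph1 and Dnajb1 lie next to the 2-fold line. It was 3 to 6 when a mouse was left out (6 without PZH 2 or control 3, 5 without PZH 5 or control 2). Of the 113 genes on the chaperone lists, 64 were lower and 5 higher, and 41 and 12 with the median-ratio scale factor. With an equal FPKM sum 3 were higher. The difference in change between Hsph1 and Hsp90aa1 turned from 0.01 to -0.054 with log2(FPKM + 0.1), an alternative added after the data were seen (adjusted p = 0.786 by an exact permutation test), and the other 4 pairs kept their direction and call. Mice with the same number did not deviate together, with correlations of -0.073 to 0.076. Only for number 5 was the same-numbered control mouse the best match. Expression alone cannot show whether the number pairs mice by cage or handling, which the labels do not give. With the number as a replicate block, 9 members were lower at the adjusted threshold and 3 were called at 2-fold, and 61 list genes were lower and 4 higher. FPKM precision is limited by depth for Cryab and Hspa1a, the members with the fewest fragments.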

Other observations

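Some chaperone genes of the lists, named here after their values were seen, were set apart by 1 mouse. Dnaja1, a J-domain partner of Hsc70, had 40.4 FPKM in PZH 1 and 11.6 to 20.0 in the other PZH mice, beside 14.7 to 18.2 in control mice, and its log2 fold change was 0.07 (adjusted p = 0.834). Cct3 had 41.5 FPKM in PZH 1 and 21.4 to 23.6 in the other PZH mice, beside 31.0 to 42.9 in control mice. Fkbp5, an Hsp90 cochaperone that is induced by glucocorticoids, went the other way, with 3.03 FPKM in PZH 1 and 6.83 to 12.8 in the other PZH mice, beside 12.6 to 18.1 in control mice. PZH 1 was also the highest PZH mouse for Hspa8, for Hsp90aa1 and for every measured CCT subunit, not Cct3 alone. It was the deepest library, with the highest FPKM sum (370426) and the lowest median-ratio factor (0.875) of the 12 mice.

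Flnc, a filamin that Bag3-dependent autophagy is known to clear, had 0.114 to 0.285 FPKM in PZH mice and 0.662 to 2.13 in control mice, a log2 fold change of -0.99 (adjusted p = 0.000125). Flna, its relative, had a log2 fold change of -0.95 (adjusted p = 0.000335). These 2 values are not alike in size, because the pseudocount of 1 compresses the change of Flnc at its low level. The control mean was 7.71 times the PZH mean for Flnc and 1.97 times for Flna. Hspa4l, the other Hsp110 relative of Hsph1, had 4.65 ± 0.248 FPKM in PZH livers and 8.20 ± 1.304 in control livers (SD, n = 6), a log2 fold change of -0.69 (adjusted p = 7.8e-05).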
